A study of Mus musculus with 3 samples.

Results

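The cadherin and protocadherin genes were described in GFP-positive cells of mouse bone marrow. The rule took every gene whose symbol is Cdh or Pcdh followed by a number, or a member of the alpha, beta or gamma protocadherin clusters (Pcdha, Pcdhb, Pcdhg), with at least 4 probesets on the array that carry exactly 1 gene symbol. After old symbols were updated, 82 symbols matched and 70 had enough probesets, of 18865 genes measured in all. These 70 members were 23 Cdh genes, 11 non-clustered Pcdh genes, 4 Pcdha, 21 Pcdhb and 11 Pcdhg genes. With the symbols as the platform annotation gives them there would be 72, because it still lists Cdhr1 and Cdhr2 as Pcdh21 and Pcdh24. At the edge of the rule, 9 members had exactly 4 probesets and 2 genes were left out with 3, Pcdhga6 (6.07, 6.52 and 6.42 on arrays 1, 2 and 3, log2 scale) and Pcdhgb1 (7.82, 7.94 and 7.91).

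The samples were 3 arrays of 1 group and no control group. All came from C57BL/6 mice in which the nestin gene promoter drives GFP, and RNA of freshly isolated, flow-sorted GFP-positive marrow cells was amplified before labelling. A GFP-positive cell is therefore any marrow cell sorted for GFP from that promoter, and the labels name no further marker in the sort. Array numbers are those of the sample titles. Whether separate mice or sorts stand behind them is not given in the labels, so a p-value here covers the spread of these samples alone, and that spread may be technical.

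Cadherins are calcium-dependent adhesion proteins that bind like molecules on a neighbouring cell. Classical cadherins hold cells together through catenins, which tie them to actin, and the mix of cadherins on a cell helps decide which cells it attaches to. Mesenchymal cells typically carry N-cadherin and cadherin-11, epithelial cells E-cadherin and endothelial cells VE-cadherin. Protocadherins lack the catenin-binding tail. The clustered ones lie in tandem arrays and are best known from neurons, where each cell uses a small and largely random set of promoters as an identity code. In the alpha and gamma clusters each variable exon is spliced to constant exons shared by the whole cluster, while each beta gene is complete in itself.

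With no second group, each gene was set against chemosensory receptor genes, which cells of nose and tongue use, read from the same array. The threshold was the 95th percentile of 349 olfactory, vomeronasal and bitter taste receptor genes, which was 5.40, 5.63 and 5.58 on arrays 1, 2 and 3. A gene was called above background where limma's one-sided test of its value minus the threshold gave an adjusted p below 0.05. Markers of perivascular stroma were called in 10 of 10 cases, while Nes, the gene whose promoter drives the reporter, had 5.97, 5.21 and 5.56 and was not called (limma adjusted p = 0.67). Osteoblast markers were called in 7 of 7 cases, smooth muscle and pericyte markers in 7 of 8 and endothelial markers in 8 of 11. Neuronal markers were called in 3 of 7 cases, Schwann and glial markers in 3 of 5, epithelial markers in 2 of 7, leukocyte markers in 1 of 7 and erythroid markers in 2 of 5. The lists were chosen with earlier results of these data known, so these counts are a description and no check of the calls. A margin over the threshold was used to choose which genes to name, and does not order genes by amount of transcript, since probes differ in affinity.

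Most members were not called above background, and a small set was. Of 70 members 23 were called (32.9%), where 51.7% of all genes tested were called by the same rule. The median margin over the threshold was 0.12 on the log2 scale for the members and 0.54 for all genes. By subfamily the calls were 4 of 23 Cdh genes, 3 of 11 non-clustered Pcdh genes, 1 of 4 Pcdha, 8 of 21 Pcdhb and 7 of 11 Pcdhg genes. Clustered genes have few probesets, and among all genes with 4 to 8 probesets 34.6% were called. Of the 23 calls 17 held when any 1 array was left out, where 8395 of the 9746 calls over all genes did. Without a test, 28 of 70 members lay above the threshold on each array, where 56.2% of all genes did. With the 99th percentile of the receptor genes as the threshold 11 members were called, where 22.7% of all genes were. A stricter background of keratin-associated, defensin and lens crystallin genes called 2 members, Cdh11 and Cdh2, where 7.13% of all genes were called.

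Among non-clustered protocadherins the called genes that held their call without any 1 array were Pcdh18 and Pcdh19. Both belong to the delta-2 group, whose proteins regulate actin and cell movement, and Pcdh19 is an X-linked gene mutated in a form of epilepsy. The stretch of 250 bases before the start site is shown for both, and for the uncalled delta-2 gene Pcdh17 as a comparison, because Pcdh18 and Pcdh19 share a short stretch there. The sequences are from RefSeq (GRCm38.p6), written 5′ to 3′ along the gene, and capitals mark each ATTGG or its reverse complement CCAAT, the letters of the CCAAT box. They cover chr3:49757317-49757566 on the minus strand for Pcdh18, chrX:133688994-133689243 on the minus strand for Pcdh19 and chr14:84443313-84443562 on the plus strand for Pcdh17.

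Pcdh18: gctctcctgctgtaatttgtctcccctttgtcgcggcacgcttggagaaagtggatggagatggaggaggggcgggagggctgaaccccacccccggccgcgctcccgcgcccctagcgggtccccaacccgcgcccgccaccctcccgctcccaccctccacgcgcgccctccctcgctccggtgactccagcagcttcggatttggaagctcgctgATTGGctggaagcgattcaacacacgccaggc
Pcdh19: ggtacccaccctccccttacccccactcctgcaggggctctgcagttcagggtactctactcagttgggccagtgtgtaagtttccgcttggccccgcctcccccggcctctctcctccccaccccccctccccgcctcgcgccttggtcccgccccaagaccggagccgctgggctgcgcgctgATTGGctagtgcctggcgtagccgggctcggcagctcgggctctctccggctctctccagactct
Pcdh17: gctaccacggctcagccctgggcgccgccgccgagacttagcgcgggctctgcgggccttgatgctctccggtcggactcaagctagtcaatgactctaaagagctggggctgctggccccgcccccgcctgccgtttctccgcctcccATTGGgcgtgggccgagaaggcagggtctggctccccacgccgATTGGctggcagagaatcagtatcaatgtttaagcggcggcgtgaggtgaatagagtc

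The longest stretch shared by the Pcdh18 and Pcdh19 windows was 12 bases, CGCTGATTGGCT, which began 37 bases before the start of Pcdh18 and 70 bases before that of Pcdh19. These 12 letters, on either strand, were found in 56 of 32851 windows of 250 bases in the table (0.17%), and in no other member's window. The stretch was picked after the sequences were seen, so these counts are a description. The 5 letters ATTGG, which it contains, were found on either strand in 33.8% of all windows and in 15 of the 25 windows of members. By gene these were 14 of the 22 members with a window, among them all 5 delta-2 genes (Pcdh8, Pcdh10, Pcdh17, Pcdh18 and Pcdh19). The 3 windows shown held 23 CpG pairs in Pcdh18, 16 in Pcdh19 and 21 in Pcdh17. Those of the uncalled delta-2 genes Pcdh8 and Pcdh10, which are not shown, held 11 and 22. The median window of the table held 6, and the median window of the members 10. A match to these letters does not show that a factor binds there.

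Type I classical cadherins were called in 2 of 5 cases, where 51.7% of all genes were. N-cadherin (Cdh2), the cadherin of mesenchymal and neural cells, had 8.77, 8.94 and 8.54 on arrays 1, 2 and 3. All 3 values lay well above the threshold, with a mean of 8.75 ± 0.20 (SD, n = 3) and a margin of 3.22 ± 0.17 (SE, limma adjusted p = 6.17e-06). R-cadherin (Cdh4), known from retina and kidney, had 6.22, 5.90 and 5.98, a margin of 0.50 ± 0.18 (limma adjusted p = 0.0308). The call of Cdh4 was lost without array 1, without array 3 and when probesets were averaged instead of taking their median. E-cadherin (Cdh1), the main cadherin of epithelia, had 5.45, 5.60 and 5.86 and lay at the threshold, without a call (limma adjusted p = 0.458). P-cadherin (Cdh3), another epithelial cadherin, had 5.27, 5.30 and 5.31 and lay below the threshold on each array. M-cadherin (Cdh15), the cadherin of muscle satellite cells, had 6.35, 6.00 and 5.48 and was not called (limma adjusted p = 0.112), though it was without array 3 and with the mean over probesets.

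Type II cadherins were called in 2 of 13 cases, where 51.7% of all genes were. Cadherin-11 (Cdh11), first known from osteoblasts and carried by many mesenchymal cells, had 11.60, 11.82 and 11.47. The values of the 3 arrays lay within 0.35 of each other, and the margin of 6.10 ± 0.17 (SE, limma adjusted p = 1.96e-06) was far above its error. VE-cadherin (Cdh5), the adhesion molecule of endothelial junctions, had 9.14, 6.05 and 9.58. Array 2 lay just above its threshold and the others far above theirs, with a mean of 8.26 ± 1.92 (SD, n = 3, limma adjusted p = 0.00545), and the call was lost without array 1. The other 11 type II genes were not called, and their means ran from 2.93 for Cdh19, a cadherin of the Schwann cell lineage, to 5.75 for Cdh22, a cadherin of brain that lay above the threshold on all 3 arrays (5.85, 5.69 and 5.72).

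The uncalled type II genes are mostly known from the nervous system and kidney. Cdh6, a cadherin of the developing kidney, had 4.98 ± 0.17 (SD, n = 3), and Cdh24 had 5.32 ± 0.32. Cdh8 and Cdh9, which mark groups of neurons and their synapses, had 4.46 ± 0.26 and 3.87 ± 0.38. Cdh7 had 4.51 ± 0.18, and Cdh20 had 4.78 ± 0.14. Cdh10 had 3.10 ± 0.18, near the median of the background genes, which was 3.40, 3.41 and 3.32. Cdh12 had 3.75 ± 0.11, and Cdh18 had 4.39 ± 0.54, with array 2 the highest. None of these 9 genes lay above the threshold on all 3 arrays.

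The cadherins outside these types were called in 0 of 5 cases by limma, where 51.7% of all genes were. Without adjustment 0 of the 5 passed 0.05. The gene above its threshold on each array was T-cadherin (Cdh13), which is anchored to the membrane by a lipid and binds adiponectin, with a mean of 5.74 ± 0.17 (SD, n = 3). Kidney cadherin (Cdh16) had 5.60, 5.28 and 5.27, and liver-intestine cadherin (Cdh17) had 4.47, 4.49 and 4.13. Cdh23, part of the tip link of hair cells, had 5.29 ± 0.13, and Cdh26 had 4.98 ± 0.06.

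**Figure D1:**
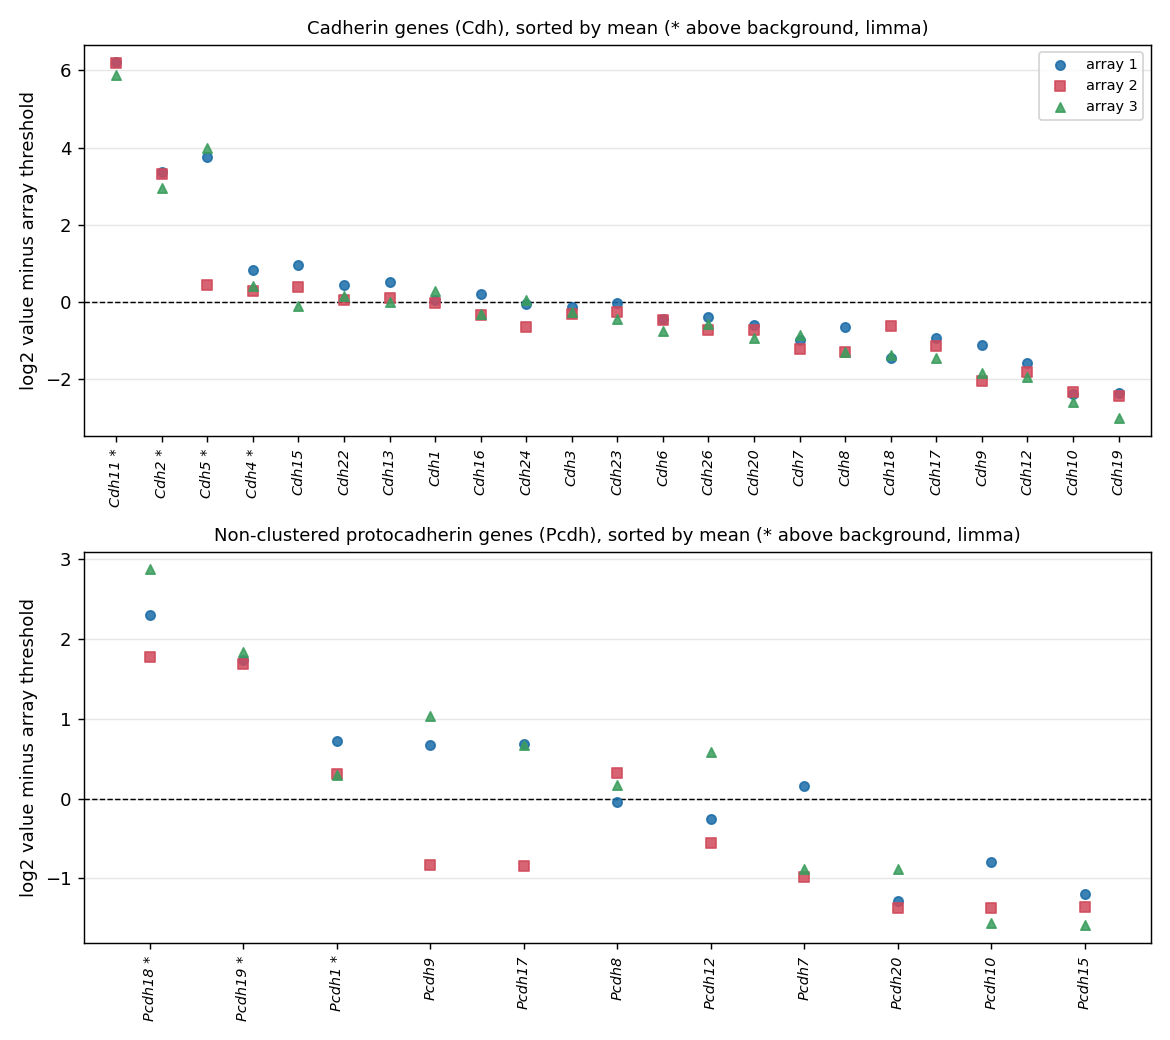
Value of each Cdh gene (top) and each non-clustered Pcdh gene (bottom) on the log2 scale minus the background threshold of the same array, with 1 point per array and the threshold as the dashed line at 0. Genes are sorted by mean margin, which does not rank their transcripts, and an asterisk marks a call by limma; Cdh11 and Cdh2 stand above the threshold on each array, while Cdh5 does so by a wide margin on arrays 1 and 3 only.

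The non-clustered protocadherins gave 3 calls of 11, where 51.7% of all genes were called. Pcdh18 had 7.70, 7.40 and 8.45, a margin of 2.31 ± 0.24 (SE, limma adjusted p = 9.09e-05), with array 3 the highest. Pcdh19 had 7.14, 7.32 and 7.42, values closer together, with a margin of 1.76 ± 0.16 (limma adjusted p = 5.47e-05). Pcdh1, a delta-1 protocadherin, had 6.12, 5.93 and 5.88 and passed narrowly (limma adjusted p = 0.042). Its call was lost without array 1, without array 2 and without array 3. Pcdh7, another delta-1 gene, had 5.55, 4.65 and 4.70 and was not called. Pcdh9 had 6.07, 4.79 and 6.61, and Pcdh17 had 6.08, 4.79 and 6.25, so both lay above the threshold on arrays 1 and 3 and below it on array 2. Both were called without array 2. The remaining uncalled genes were Pcdh8 at 5.69 ± 0.30, Pcdh10 at 4.29 ± 0.29, Pcdh12, an endothelial protocadherin, at 5.46 ± 0.61, Pcdh20 at 4.36 ± 0.30 and the hair cell gene Pcdh15 at 4.15 ± 0.14.

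The clustered protocadherins were called in 16 of 36 cases (44.4%), where 51.7% of all genes were. Of the 36 genes 27 had 4 to 8 probesets, and 34.6% of all genes with so few were called. Beta genes were called in 8 of 21 cases. In chromosomal order, by the RefSeq table, none of the 7 genes from Pcdhb1 to Pcdhb7 was called by limma. Without adjustment 1 of them, Pcdhb4, passed 0.05, and the same gene was above the threshold on each array. From Pcdhb9 to Pcdhb22 the calls were 8 of 14. This split was noticed in the data and was not tested, and it depended on the threshold. With the 90th percentile of the receptor genes, Pcdhb2, Pcdhb4, Pcdhb6 and Pcdhb7 were called among the first 7. Among the later genes that setting added Pcdhb11. Genes of a cluster resemble each other in sequence, so a probeset may in part read a neighbour, which was not tested. Single beta, gamma and alpha genes are uncertain to that extent.

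Pcdhb16 had 8.21, 8.66 and 8.39 on arrays 1, 2 and 3, a margin of 2.88 ± 0.16 (SE, limma adjusted p = 7.37e-06). Pcdhb17, the next gene along, had 7.97, 7.79 and 7.90 (limma adjusted p = 2e-05). Pcdhb22, the last of the cluster, had 7.54, 7.49 and 7.32 (limma adjusted p = 5.05e-05). The 3 arrays differed by at most 0.45 in these 3 genes. Pcdhb9 and Pcdhb10 were also called, with values that differed widely between arrays. The call of Pcdhb10 was lost without array 1 (limma adjusted p = 0.0627), and that of Pcdhb9 when genes with 2 probesets were admitted (limma adjusted p = 0.0633). The remaining calls were Pcdhb12 (7.20 ± 0.46), Pcdhb14 (6.88 ± 0.22) and Pcdhb15 (6.70 ± 0.62, SD, n = 3). Pcdhb1, at the start of the cluster, had the smallest margin of the beta genes, with 4.67, 4.99 and 4.89.

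The uncalled beta genes fell into those near the threshold and those well below it. Pcdhb4 had 6.20, 5.75 and 5.94 (limma adjusted p = 0.062) and Pcdhb6 had 6.26, 5.58 and 5.95 (limma adjusted p = 0.101), and both were called without array 2. Pcdhb7 had 5.55 ± 0.15 (SD, n = 3), Pcdhb11 5.52 ± 0.07 and Pcdhb19 5.39 ± 0.25. Pcdhb5 had 5.30 ± 0.37, Pcdhb21 4.92 ± 0.07 and Pcdhb3 4.87 ± 0.21. In 3 further genes the arrays differed by more than 1. Pcdhb2 had 5.04, 6.50 and 5.47, with array 2 above the threshold and the others below. Pcdhb18 had 4.57, 5.69 and 5.69, with array 1 low. Pcdhb20 had 4.89, 5.27 and 6.78, with array 3 alone above the threshold.

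Gamma genes were called in 7 of 11 cases, where 51.7% of all genes were. These genes had 4 to 8 probesets each, with a median of 4, and 34.6% of all genes with 4 to 8 were called. By type the calls were 5 of 6 B genes and 2 of 5 A genes. Without a test, 5 of 6 B genes and 4 of 5 A genes lay above the threshold on all 3 arrays. No C type gene had enough probesets. Pcdhgb4 had 6.69, 8.46 and 8.86 (limma adjusted p = 0.000569), and Pcdhgb2 had 9.27, 6.70 and 7.87 (limma adjusted p = 0.00214). Each lay above the threshold on all 3 arrays, by amounts that differed. Pcdhgb6 had 7.71, 6.84 and 7.56, Pcdhgb7 7.13, 7.47 and 7.02, and Pcdhga10 6.34, 7.04 and 7.51. The calls of Pcdhgb5 and Pcdhga7 did not hold without array 3, and that of Pcdhgb5 was also lost without array 1. Pcdhga4 had the smallest margin of the cluster, with 3.99, 5.13 and 6.35, and was not called. The other uncalled gamma genes lay above the threshold on each array. Pcdhgb8 had 5.69, 5.64 and 6.84 (limma adjusted p = 0.0815) and was called without array 2. Pcdhga12 had 5.55, 5.71 and 6.38, and Pcdhga5 had 6.06, 5.68 and 5.73.

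Of the 12 genes with too few probesets, 9 could be tested when 2 probesets were enough. By limma Pcdhgb1 (adjusted p = 8.22e-05) and Pcdhgc3 (adjusted p = 0.0453) were called among them. The same setting lost 5 of the 23 calls among the members, those of Cdh4, Pcdh1, Pcdhb9, Pcdhga7 and Pcdhgb5, and gained none among the 70. Pcdhgc3 is a C type gene, a type that neurons use more uniformly than the others. These values rest on 2 or 3 probesets each, and those of Pcdha1, Pcdha3, Pcdha11, Pcdhb8, Pcdhga2, Pcdhga6 and Pcdhgc4 were not called.

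Alpha genes were measured in only 4 cases. Pcdha5 was called, with 6.82, 6.90 and 6.59 (limma adjusted p = 0.000426). Its 4 probesets disagreed, with means from 4.52 to 11.69. Pcdha4, Pcdha7 and Pcdha8 were not called and had means from 4.39 to 4.54.

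**Figure D2:**
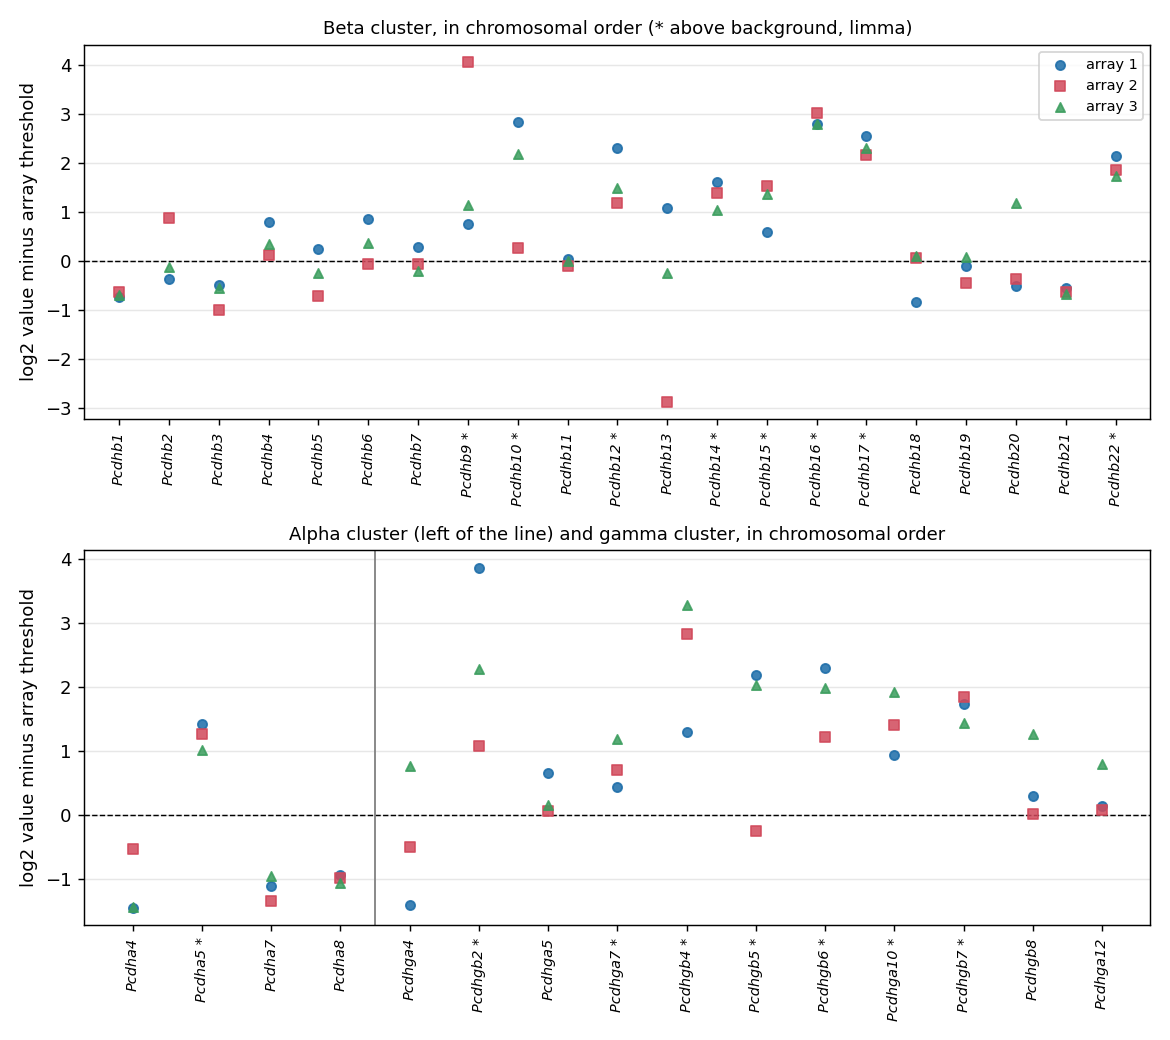
Log2 value less that array's own threshold for the beta genes (top) and the alpha and gamma genes (bottom), in chromosomal order and with 1 point per array; equal spacing does not show distance, and an asterisk marks a call by limma. None of the first 7 beta genes is called at this threshold, though some are at a lower one, and Pcdhb9, Pcdhb13 and Pcdhgb2 show wide gaps between arrays.

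Probesets within a gene show whether its median stands for the whole transcript. A probeset was taken as bright where it lay above the 95th percentile of the background genes' probesets (7.13, 7.34 and 7.13) on all 3 arrays, which held for 25.8% of the probesets of all genes tested and 3.68% of those of the background genes. In the members it held for 146 of 959 (15.2%). Cdh11 had 18 bright probesets of 19 and Cdh2 21 of 28. Where the bright probesets lie along the transcript was not examined. Pcdh19 had 5 of 14, Pcdh18 4 of 9 and Pcdhb16 6 of 10. Other called genes had few or none, such as Cdh4 with 3 of 23, Pcdh1 with 0 of 10, Pcdhga10 with 0 of 6 and Pcdhga7 with 0 of 4. Cdh5 had 2 of 14, since most of its probesets fell below the limit on array 2. Some genes without a call also held bright probesets. Cdh18, a cadherin of the nervous system, had 4 bright probesets of 27, the brightest at 12.06, 11.92 and 12.00, beside a median probeset at 4.02. Pcdh17 had 1 of 14, at 11.03, 11.26 and 11.34, and Cdh15 had 4 of 16, the brightest at 10.58, 10.59 and 10.61. Which transcript such a probeset reads was not tested.

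The values of many clustered protocadherins lay far apart on the 3 arrays. A range over the arrays above 1 on the log2 scale was found in 14 of 36 clustered genes (38.9%), in 2 of 23 Cdh genes and in 4 of 11 non-clustered Pcdh genes, where 15.8% of all genes had such a range. Among all genes with 4 to 8 probesets 19.5% had such a range and among those with 9 or more 14.3%, where 11 of the 27 clustered genes with 4 to 8 probesets did (40.7%). Across the 70 members the values of arrays 1 and 2 correlated with a Pearson's r of 0.77, those of arrays 1 and 3 with 0.91 and those of arrays 2 and 3 with 0.83, where all genes gave 0.93, 0.95 and 0.94 in the same order. Of the 23 called members 7 were lowest on array 1, 9 on array 2 and 7 on array 3, where the shares of all called genes were 29%, 34.8% and 36.3%. These correlation coefficients are across genes, which are not independent replicates, and their difference was not tested.

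The widest ranges were those of Pcdhb13 and Pcdhb9, in opposite directions. Pcdhb13 had 6.48, 2.75 and 5.35, with array 2 far below the others, and was not called. Array 2 lay more than 1 below the mean of the others in 3 of its 5 probesets, and more than 1 above it in 1. Pcdhb9 had 6.16, 9.70 and 6.72 (limma adjusted p = 0.0143), with array 2 the highest. In 4 of its 8 probesets array 2 lay more than 1 higher than the mean of the others, and in the other 4 it lay within 1. The smallest of the 8 differences was 0.39, so array 2 stood above that mean in every probeset, by unlike amounts. Single bright probesets of Pcdhb3 (7.94, 11.01 and 8.67) and Pcdhb7 (8.49, 11.05 and 7.58) were likewise highest on array 2, although neither gene was called. Whether these probesets read 1 transcript was not tested.

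Pcdhb10 and Pcdhgb5 were low on array 2. The gamma gene Pcdhgb2 was also lowest on array 2 and was highest on array 1 (9.27, 6.70 and 7.87). Pcdhgb4 and Pcdhga4 were lowest on array 1 and highest on array 3, with Pcdhga4 at 3.99, 5.13 and 6.35. Pcdhb10 had 8.25, 5.89 and 7.78, with array 2 more than 1 lower in 5 of 9 probesets and more than 1 higher in 1. Pcdhgb5 had 7.58, 5.37 and 7.62, with array 2 lower by more than 1 in 4 of 6 probesets. In Pcdhgb2 array 1 stood more than 1 above the mean of the others in 3 of 4 probesets, and in Pcdhgb4 it stood more than 1 below in 3 of 4. In Pcdhga4 array 3 stood more than 1 above in 2 of 5. Pcdhb9 and Pcdhb10, which lie side by side, were highest and lowest on array 2. With 1 sample per value, a difference between arrays has no test.

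**Figure D3:**
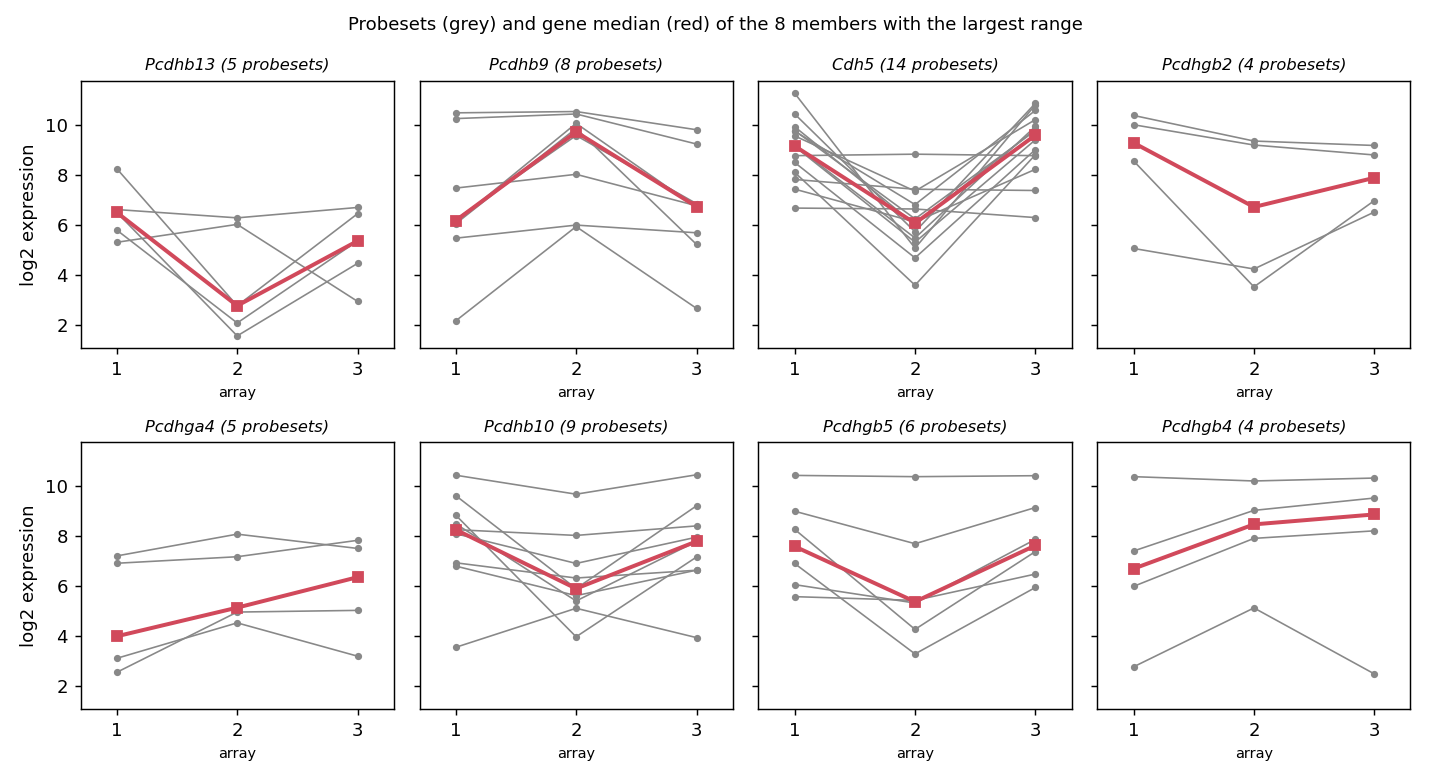
Log2 expression of every probeset (grey) and the gene median (red) on the 3 arrays for the 8 members with the largest range; lines join the values of 1 probeset and the arrays have no order. Most probesets of Cdh5 are lowest on array 2, while those of Pcdhb9 divide into 4 that are more than 1 higher on array 2 and 4 that lie within 1.

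Cdh5 was far lower on array 2 than on the others, and markers of endothelium were lowest there too. In 11 of its 14 probesets array 2 lay more than 1 below the mean of the others, and the median probeset differed by -3.70. All 11 endothelial markers measured were lowest on array 2, where 6199 of all 18865 genes were. Their median was 7.05, 5.88 and 7.77 in array order, their summed level on the linear scale was 2369, 715 and 3012, and none was at 0. Over the 10 perivascular stroma markers 4 were lowest on array 2, and the summed level was 15397, 15380 and 14607. Cdh2 and Cdh11 were highest on array 2, by at most 0.40 over the lowest array. The summed level of 5 erythroid markers was also low on array 2 (1583, 459 and 1645). That sum is mostly Hbb-b1, a beta-globin gene (10.49, 8.33 and 10.56), and only Hbb-b1 was lowest there. The median deviation of the 5 from their means over the arrays, after removing that of all genes, was 0.02 on array 2. Of 8 smooth muscle and pericyte markers 3 were lowest on array 2. Among them were the potassium channel subunit genes Abcc9 (8.36, 7.10 and 9.30) and Kcnj8 (7.17, 5.72 and 6.96), named after their values were seen. Rgs5 of the same list, also named afterwards, went another way and was lowest on array 3 (8.39, 8.25 and 6.37). The median deviation of these 8 markers on array 2, computed alike, was -0.03. The part of endothelial, erythroid or mural cells in the values of Cdh5 was not tested, and fewer cells of a type and less RNA per cell cannot be told apart in such bulk samples. Pcdh9 and Pcdh17 were also lowest on array 2, while Pcdh12 had 5.14, 5.07 and 6.17, with array 3 apart.

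**Figure D4:**
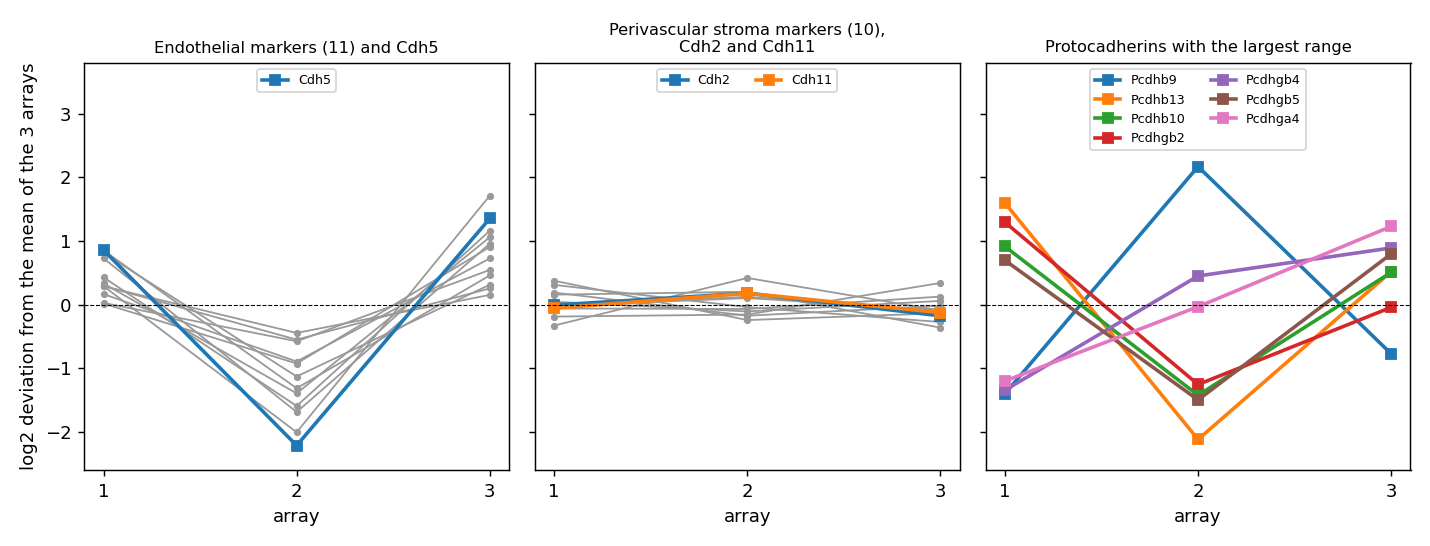
Deviation of each gene from its mean over the 3 arrays (log2 scale, after removing the median deviation of all genes on each array) for endothelial markers with Cdh5 (left), perivascular stroma markers with Cdh2 and Cdh11 (middle) and the 7 protocadherins with the largest range (right); lines join the values of 1 gene and the arrays have no order. Cdh5 and the endothelial markers are all lowest on array 2, Cdh2 and Cdh11 lie within 0.18 of 0, and the protocadherins differ in which array is high.

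Where 51.7% of all genes were called, 8 of 11 partners of cadherins inside the cell (catenins and related proteins) were. They included p120-catenin (Ctnnd1, 9.14 ± 0.31, SD, n = 3), which steadies cadherins at the membrane, vinculin (Vcl, 8.70 ± 0.52) and alpha-catenin (Ctnna1, 8.34 ± 0.46), which links to actin. Beta-catenin (Ctnnb1), added here for its role, had 8.20 ± 0.46. With the keratin-associated, defensin and crystallin background 2 of the 11 partners were called. The member with the smallest margin was Ctnna3, the alpha-catenin of heart and testis, with 4.57 ± 0.11. Desmosomal cadherins and plaque proteins, which join epithelial and heart cells, were called in 1 of 12 cases. The called gene was the plakophilin gene Pkp3 (6.69 ± 0.10), and none of the desmoglein or desmocollin genes measured was called, with Dsg1c at 3.79 ± 0.13.

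Large and atypical cadherins were called in 4 of 16 cases, among them Fat1 (9.39 ± 0.20, SD, n = 3) and Fat4 (8.16 ± 0.32), giant cadherins of tissue growth and polarity, and calsyntenin-1 (Clstn1, 7.53 ± 0.34). Cdhr5, a cadherin of intestinal microvilli, had 3.87, 4.15 and 3.98. Repressors of the E-cadherin gene were called in 5 of 6 cases, with Snai2 at 10.86 ± 0.34, Zeb2 at 9.10 ± 0.18 and Zeb1 at 7.69 ± 0.35, while Snai1 stood at 5.67 ± 0.19 without a call. Proteases that cut cadherins were called in 4 of 4 cases, with Adam10, which sheds N- and E-cadherin, at 8.54 ± 0.07 and the presenilin gene Psen2 at 6.37 ± 0.40. Adam17 had 7.77 ± 0.50 and Furin, which matures cadherin precursors, 7.14 ± 0.23. Genes that regulate promoter choice in the protocadherin clusters were called in 10 of 11 cases. The cohesin genes Smc1a (9.59 ± 0.22), Smc3 (9.52 ± 0.11) and Rad21 (9.32 ± 0.23) were among them, and the DNA methyltransferase gene Dnmt3b (5.60 ± 0.17) was not called. Each of these shares is read beside the 51.7% called among all genes.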

How the data were processed

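Total RNA of sorted cells was amplified and hybridised to Affymetrix exon arrays, 3 samples of 1 group. The authors deposited log2 values per probeset, made with Affymetrix Expression Console 1.1 and RMA, per the submitters' processing notes. RMA sets the arrays on 1 common distribution, so a shift of all genes cannot be seen, and 20744 probesets stand at exactly 0 on each array. Array data give no read depth, and the number of arrays limits the precision. Probesets were named through the platform annotation, and 318760 had 1 symbol, 6684 several and 931387 none. Of the symbols 4227 were updated through RefSeq synonyms (GRCm38.p6). A gene's value is the median over its probesets, with at least 4.

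Values minus the threshold were tested with limma 3.58.1 in R 4.3.3 (intercept only, one-sided, Benjamini-Hochberg over 18865 genes), and the script was tested on simulated data. Members and lists were chosen with earlier results of these data known. Named were all called Cdh and non-clustered Pcdh genes, textbook markers and the 3 uncalled ones nearest the threshold, up to 5 called members and the smallest margin in each cluster, the 8 widest ranges, and up to 3 called genes and the smallest margin in each pathway list. Other members, and Ctnnb1, were added for their role after their values were seen. The alternatives changed the array set, the background, the summary, the number of probesets, the variance model and the symbols.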

Additional observations from a re-analysis of the deposited data

Results flagged for a closer look

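Probesets that the annotation gives to several genes of 1 protocadherin cluster entered no gene value above. Of 24 such probesets in the alpha cluster, 5 lay above the probeset threshold on all 3 arrays, and their medians were 6.08, 5.90 and 5.89 on arrays 1, 2 and 3. Of 30 in the gamma cluster, all of which carry Pcdhga12 among their symbols, 7 did so, with medians of 6.29, 6.11 and 6.33. Among the probesets of the background genes 76 of 2064 (3.68%) lay above the threshold on all 3 arrays, and among those of all genes tested 25.8% did. The files do not give which of these probesets lie in the constant exons that the genes of a cluster share. Groups of 3 samples are too small for the search for outlying samples.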

How the results depend on the processing

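Of 421 comparisons of the 31 named members with an alternative, 374 kept their call or lack of a call, without a turn of sign in a called gene. The 374 include 31 comparisons that left out probesets at 0. These could not change, since no member has such a probeset and the calls over all genes stayed at 9746. The background set the counts most. Over all genes the count of calls was 4284 with its 99th percentile and 1345 with keratin-associated, defensin and crystallin genes. Members called were 36 with the 90th percentile, 11 with the 99th and 2 with the keratin background, and 11 of 46 with at least 8 probesets. The 90th percentile called 8 Cdh and 13 Pcdhb genes. The 99th called 2 Cdh, 3 Pcdhb and 4 Pcdhg genes and 0 Pcdha (limma, 0 at unadjusted p below 0.05, 1 above on all 3 arrays). The keratin background called 2 Cdh genes and 0 non-clustered Pcdh, 0 Pcdha, 0 Pcdhb and 0 Pcdhg (limma; at unadjusted p below 0.05 and above on all 3 arrays, 1 Pcdhb and 0 of the others). At least 8 probesets called 4 of 12 Pcdhb and 0 of 1 Pcdhg gene (limma, 0 at unadjusted p below 0.05) and left no Pcdha gene.

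Leaving out 1 array gave 8848 to 9551 calls over all genes, 18 (without array 1) to 27 (without array 2) over members, 2 to 4 for Cdh, 2 to 4 for non-clustered Pcdh, 7 to 10 for Pcdhb and 5 to 8 for Pcdhg, and Pcdha5 stayed the only Pcdha call. Cdh fell to 2 without array 1, where Cdh4 and Cdh5 lost their calls. Among the named members that were called, margins turned negative with the 99th percentile for Cdh4 at -0.60 and Pcdh1 at -0.66. With the keratin background they did so for Cdh4 at -1.85, Pcdh1 at -1.91, Pcdh18 at -0.0394, Pcdh19 at -0.60, Pcdha5 at -1.12, Pcdhb9 at -0.36, Pcdhb10 at -0.58, Pcdhb17 at -0.0064, Pcdhb22 at -0.44, Pcdhga10 at -0.93, Pcdhgb5 at -1.03, Pcdhgb6 at -0.52 and Pcdhgb7 at -0.68. A higher threshold lowers each margin by construction, so some margins of uncalled members, and of called ones not listed here, turned too. No paired analysis was possible because the series has 1 group.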
